A study of Arabis alpina with 12 samples.

Results

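HSFA2 (Aa_G290430h1), HSFA7A (Aa_G695970h1) and HSFA7B (Aa_G273040h1) are genes for heat shock transcription factors of class A, and they are 3 of the 34220 genes counted in shoot apices and V3 buds of the perennial crucifer Arabis alpina, which is related to Arabidopsis. They were chosen as the 3 rows with these identifiers, which the authors' deposited lists pair with the Arabidopsis orthologues AT2G26150, AT3G51910 and AT3G63350. Names existed only for genes that the authors listed as different between the genotypes in these same libraries, so the comparisons of Aatoe2_IL with wild type chose the members and are given below as a description, with no test. Comparisons of V3 buds with apex were not used to choose them and were tested, although they share libraries with the comparisons that were.

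All plants were of the accession Pajares. They grew for 8 weeks in long days and then spent 8 weeks in vernalization, which is a long cold treatment, in short days. The 4 groups were dissected shoot apices of wild type, dissected shoot apices of Aatoe2_IL, dissected V3 buds of wild type and dissected V3 buds of Aatoe2_IL, each with 3 libraries of poly(A) RNA. AaTOE2 encodes a transcription factor of the APETALA2 family, and Aatoe2_IL was the single line used to change it. The study compared the apices for its part in flowering during vernalization and the buds for its part in axillary branches. What the lesion in Aatoe2_IL is, what its suffix stands for and at which temperatures plants grew is not given in the sources used here. Whatever else differs between this line and wild type cannot be told apart from AaTOE2 itself. The labels number the replicates without saying that they came from separate plants, so the p-values measure the spread between these samples, which may be technical.

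Heat shock factors bind short repeated DNA elements in the promoters of chaperone genes and switch these genes on when proteins unfold. In Arabidopsis the class A1 factors are present before stress and act first, and they induce the genes of further class A factors, among them HSFA2, HSFA7A and HSFA7B. HSFA2 prolongs the heat response and is also induced by strong light and oxidative stress, whereas factors of class B lack the activation domain of class A and include repressors such as HSFB2B. HSFA7A and HSFA7B form a closely related pair.

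Each library held between 9411616 and 12309478 reads in genes, and the 3 members had between 5 and 3073 reads in a library. Levels are CPM, read counts scaled to the library's total in the genes that passed a filter on low counts, after TMM normalization. Levels of different genes are not compared, because gene lengths were not used. All 3 members passed the filter, and each was the only row with its number in the table. In these bulk samples, fewer cells of a type and less RNA per cell cannot be told apart.

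HSFA2 had 40.9, 12.7 and 25.5 CPM in wild-type apex replicates 1, 2 and 3, and 24.4, 256 and 293 CPM in the Aatoe2_IL apex replicates of the same numbers. In V3 buds it had 44.8, 26.0 and 18.6 CPM in wild type and 31.6, 209 and 285 CPM in Aatoe2_IL. Replicates 2 and 3 of Aatoe2_IL were high in both tissues, from 4.67 to 7.16 times the highest wild-type library of the tissue. Replicate 1 of Aatoe2_IL lay inside the wild-type range in both tissues, so the genotype groups overlapped. Means and SDs of Aatoe2_IL therefore cover libraries far apart. Whether replicate 1 differed in its sampling or its label was not tested, and levels of marker genes in it are given below.

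HSFA7A showed the same order of libraries within each group, with a wider spread. It had 23.6, 1.3 and 3.3 CPM in wild-type apices and 4.87, 168 and 189 CPM in Aatoe2_IL apices. In V3 buds it had 9.08, 3.23 and 0.5 CPM in wild type, the last from 5 reads, and 3.76, 59.7 and 70.6 CPM in Aatoe2_IL. Again Aatoe2_IL replicate 1 lay within the wild-type range in both tissues, while replicates 2 and 3 were between 6.58 and 8.00 times the highest wild-type library.

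HSFA7B had 9.91, 0.864 and 1.1 CPM in wild-type apices, the latter pair from 10 and 13 reads, and 2.52, 59.7 and 47.6 CPM in Aatoe2_IL apices. In V3 buds the levels were 5.85, 3.54 and 1.5 CPM in wild type and 3.12, 40 and 37.8 CPM in Aatoe2_IL. For this gene too the genotype groups overlapped only through Aatoe2_IL replicate 1. Within wild type, replicate 1 was the highest library of all 3 members in both tissues.

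**Figure D1:**
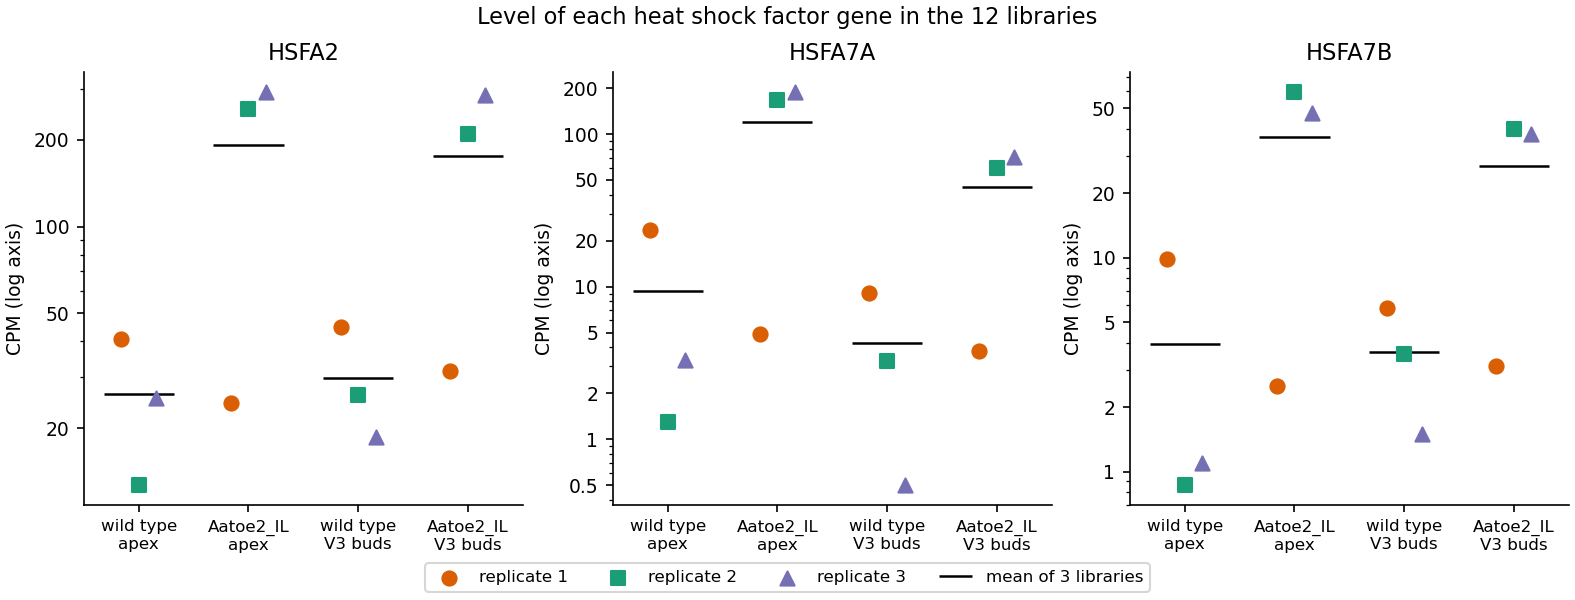
CPM of HSFA2, HSFA7A and HSFA7B on a log axis in the 12 libraries, by group, with the replicate number as symbol and the mean of the 3 libraries as a bar. In both tissues replicates 2 and 3 of Aatoe2_IL lie above every wild-type library, and replicate 1 of Aatoe2_IL lies among the wild-type libraries.

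This arrangement, with Aatoe2_IL replicates 2 and 3 above all wild-type libraries of the tissue and replicate 1 within their range, was noticed in the members' own values. It held for 3 of 3 members in each tissue, and for 8.05% of all 19520 genes tested in the apex and 5.51% in V3 buds. Aatoe2_IL replicate 1 was the lowest of its group for 3 of 3 members in both tissues, against 35.3% of all genes in the apex and 34.8% in V3 buds. Wild-type replicate 1 was the highest of its group for 3 of 3 members in both tissues, against 41.0% and 43.9% of all genes. These shares describe the libraries, and since the members were named from the genotype contrast they support no statement about it.

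The group means kept 1 order at the top. HSFA2 had 191 ± 145 CPM in Aatoe2_IL apices, 175 ± 130 in Aatoe2_IL buds, 29.8 ± 13.5 in wild-type buds and 26.4 ± 14.1 in wild-type apices (SD, n = 3). HSFA7A had 120 ± 101 CPM in Aatoe2_IL apices, 44.7 ± 35.9 in Aatoe2_IL buds, 9.41 ± 12.4 in wild-type apices and 4.27 ± 4.38 in wild-type buds. HSFA7B had 36.6 ± 30.2 CPM in Aatoe2_IL apices, 27.0 ± 20.7 in Aatoe2_IL buds, 3.96 ± 5.16 in wild-type apices and 3.63 ± 2.18 in wild-type buds. For each of the 3 genes every neighbouring pair of groups in this order had overlapping ranges. In Aatoe2_IL apices the highest library exceeded the lowest by 12 times for HSFA2, 38.8 times for HSFA7A and 23.7 times for HSFA7B, and in wild-type apices by 3.22, 18.2 and 11.5 times.

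The values that chose the members were those of the authors' deposited tables, which list genes whose means differed more than 2 times between the genotypes at an adjusted p-value below 0.05. In the authors' deposited table for the apex HSFA7A had a fold of 12.94 and stood 1st by adjusted p-value among 125 genes listed as higher in Aatoe2_IL. HSFA2 had a fold of 7.31 in the apex in the authors' deposited table and stood at rank 2, and HSFA7B had a fold of 9.35 and rank 10. For V3 buds the authors' deposited table gave folds of 5.92 for HSFA2, 10.57 for HSFA7A and 7.49 for HSFA7B, at ranks 4, 6 and 14 of 270. The adjusted p-values in the authors' deposited tables ran from 5.76e-91 for HSFA7A in the apex to 5.76e-27 for HSFA7B in V3 buds. Which of the named tools gave them is not stated. They stand beside genotype groups that overlapped for each member in both tissues, through Aatoe2_IL replicate 1.

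Fitted with edgeR's quasi-likelihood model over all 12 libraries, the log2 difference of Aatoe2_IL from wild type in the apex was 2.85 (SE 0.79) for HSFA2, 3.65 (SE 1.13) for HSFA7A and 3.16 (SE 1.01) for HSFA7B. In V3 buds it was 2.56 (SE 0.79), 3.39 (SE 1.28) and 2.89 (SE 1.05). These differences had the sign and nearly the size of the authors' folds, and their errors carried the spread among the Aatoe2_IL libraries. The members were chosen by this contrast, so no test of it is given. The groups did not overlap for 0 of 3 members in either tissue, against 20.8% of all genes for the apex and 22.1% for V3 buds.

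The size of the genotype difference moved with single libraries of the tissue compared, and hardly with those of the other tissue. Its sign did not change in any of the 12 fits that each left out 1 library. The members were chosen by this contrast, so the kept sign supports no statement about it. Without Aatoe2_IL apex replicate 1 the apex value was 3.37 for HSFA2, 4.21 for HSFA7A and 3.72 for HSFA7B on the log2 scale. Without Aatoe2_IL bud replicate 1 the bud value was 3.05, 3.93 and 3.42. Leaving out the high wild-type replicate 1 had a larger effect on the HSFA7 pair, with 5.70 for HSFA7A and 5.19 for HSFA7B in the apex and 4.59 for HSFA7A in V3 buds. Over the 12 fits HSFA2 ranged from 2.40 to 3.37 in the apex and from 2.02 to 3.05 in V3 buds.

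**Figure D2:**
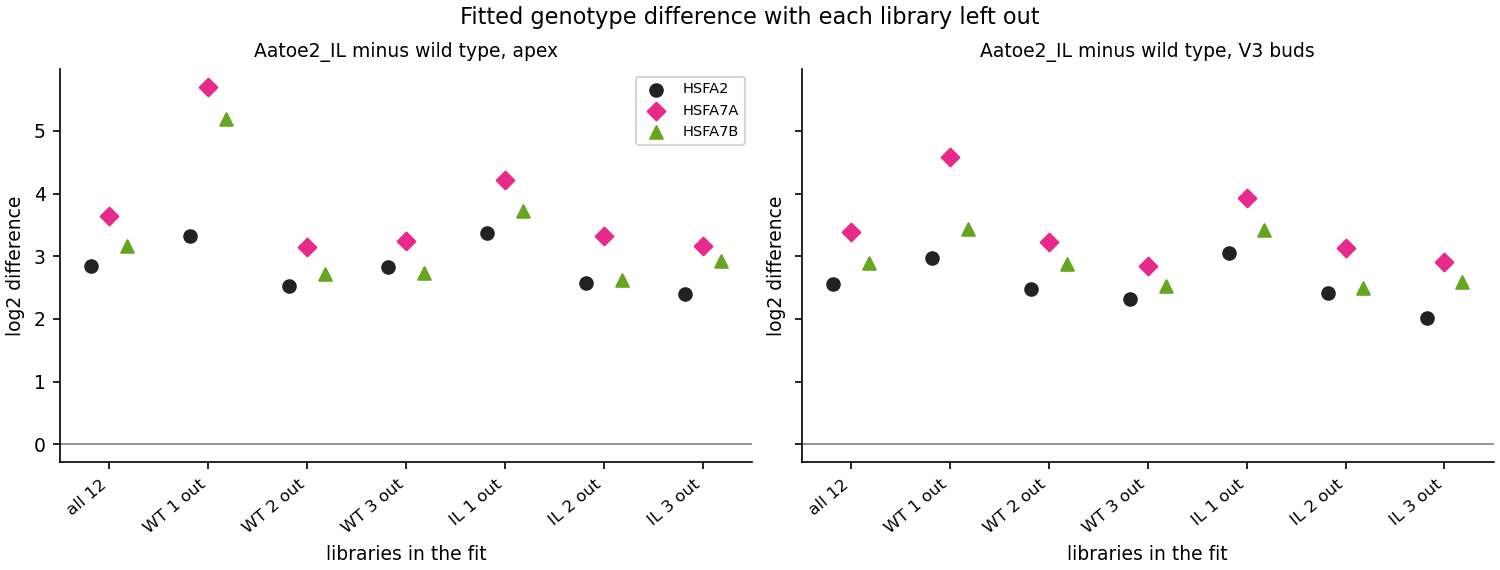
Fitted log2 difference of Aatoe2_IL from wild type in the apex (left) and in V3 buds (right), with all 12 libraries and with 1 library of that tissue left out, where WT is wild type, IL is Aatoe2_IL and the number is the replicate. All values are above 0, and the highest in the apex are 5.70 for HSFA7A and 5.19 for HSFA7B without wild-type replicate 1.

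Between the tissues the genotype differences were alike in size. The difference in V3 buds minus that in the apex was -0.29 (SE 1.07) for HSFA2, -0.26 (SE 1.74) for HSFA7A and -0.27 (SE 1.48) for HSFA7B on the log2 scale. With these errors, a difference of several fold between the tissues in either direction cannot be told apart from none. Both genotype differences and both tissue differences draw on the same 12 libraries.

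V3 buds were compared with the apex in each genotype to see whether the members were set differently in the 2 tissues. HSFA7A was lower in V3 buds of Aatoe2_IL than in the apex of the same replicate number in all 3 numbers, with bud levels of 0.773, 0.356 and 0.373 times the apex level in replicates 1, 2 and 3. HSFA2 in Aatoe2_IL had 1.29, 0.816 and 0.974 times its apex level in buds of replicates 1, 2 and 3, and HSFA7B had 1.24, 0.669 and 0.794 times. Of these genes HSFA7A alone had the same direction in all 3 numbers.

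Without regard to the replicate number no member passed the test of V3 buds against apex in Aatoe2_IL. The log2 difference of buds from apex was -0.12 (95% interval -1.66 to 1.41, edgeR adjusted p = 0.966) for HSFA2, -1.43 (-3.56 to 0.71, edgeR adjusted p = 0.576) for HSFA7A and -0.43 (-2.27 to 1.41, edgeR adjusted p = 0.891) for HSFA7B. Apex and bud libraries of Aatoe2_IL with the same number deviated together from their group means over all genes tested. The correlations were 0.49, 0.40 and 0.31 for numbers 1, 2 and 3. No label pairs these libraries, so the replicate block and its p-values rest on these correlations in the same data. The blocked fit also takes its spread from both genotypes and in part from other genes. Its SE and p-values therefore do not measure the spread of the 3 bud-to-apex ratios alone, which for HSFA7A ran from 0.356 to 0.773. With the replicate number as a block, HSFA7A was lower in V3 buds by a log2 difference of -1.35 (SE 0.19, 95% interval -1.75 to -0.95, edgeR adjusted p = 5.70e-05). HSFA2 then had -0.04 (95% interval -0.34 to 0.27, edgeR adjusted p = 0.918) and HSFA7B -0.37 (-0.80 to 0.05, edgeR adjusted p = 0.286). The blocked fit thus called 1 of 3 members lower and 0 higher, against 5.25% and 6.93% of all genes. Without the block edgeR called 0 of 3 members after adjustment, against 5.67% of all genes, and 0 of 3 at an unadjusted p under 0.05, against 16.2%, and the DESeq2 test called 0 of 3 after adjustment, against 6.82%. HSFA7A was also the 1 member of 3 that was lower in V3 buds in all 3 numbers, an arrangement found in 23.7% of all genes.

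The blocked difference of HSFA7A kept its sign and its call with each replicate number of Aatoe2_IL left out. It was -1.45, -1.22 and -1.27 with Aatoe2_IL numbers 1, 2 and 3 left out in turn, with edgeR adjusted p-values of 6.04e-06, 0.0109 and 0.00403. In the 6 Aatoe2_IL libraries alone the blocked fit gave -1.39 for HSFA7A (edgeR adjusted p = 2.77e-08) and -0.40 for HSFA7B (edgeR adjusted p = 0.0157), so that 2 of 3 members passed as lower there and 0 as higher, against 7.19% and 9.46% of the genes tested in that fit. Replicate 1 of HSFA7B went the other way. These p-values too draw in part on the spread of other genes, and at most 3 replicate numbers of Aatoe2_IL stand behind each. The blocked fit of all 12 libraries also blocked the wild-type numbers, which were not taken as pairs elsewhere. It called HSFA7A in wild type, at -1.05 (edgeR adjusted p = 0.0208), although the wild-type ratios, given next, went both ways. In wild type it called 1 of 3 members lower and 0 higher, against 13.3% and 11.4% of all genes. Whether the tissue difference of HSFA7A itself differs from that of HSFA2 or HSFA7B was not tested.

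In wild type no member passed the test of V3 buds against apex without the block. The log2 difference was 0.17 (95% interval -1.52 to 1.86, edgeR adjusted p = 0.919) for HSFA2, -1.17 (-4.12 to 1.79, edgeR adjusted p = 0.642) for HSFA7A and -0.16 (-2.72 to 2.40, edgeR adjusted p = 0.951) for HSFA7B. The edgeR test called 0 of 3 members after adjustment, against 11.2% of all genes, and 0 of 3 at an unadjusted p under 0.05, against 25.4%. The DESeq2 test called 0 of 3 after adjustment, against 11.6%. HSFA7A in wild-type buds was at 0.384, 2.49 and 0.152 times its apex level in replicates 1, 2 and 3, so the numbers went in different directions. The apex and bud groups did not overlap for 0 of 3 members in either genotype, against 27.5% of all genes in wild type and 22.7% in Aatoe2_IL. For HSFA2 the corresponding ratios were 1.09, 2.05 and 0.729, and for HSFA7B 0.590, 4.10 and 1.37. Without wild-type apex replicate 1 the sign turned for the HSFA7 pair, with log2 differences of 0.88 for HSFA7A and 1.87 for HSFA7B. For HSFA7B it also turned without wild-type bud replicate 3, to 0.21.

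**Figure D3:**
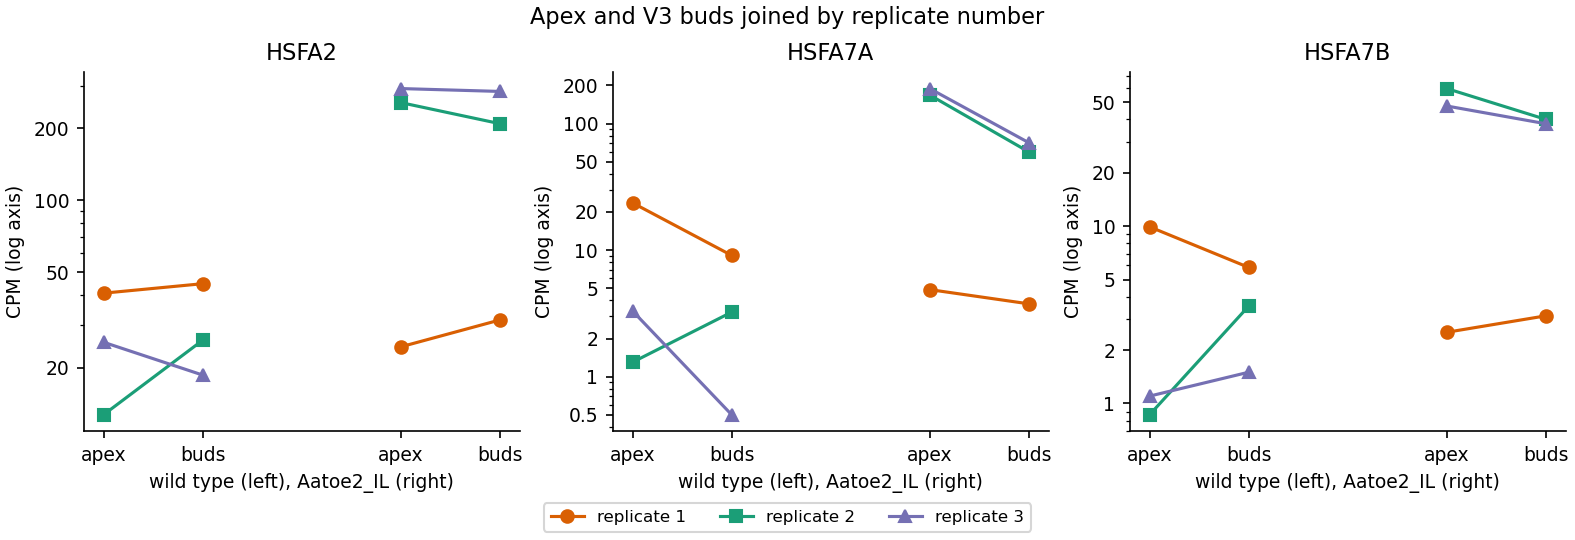
CPM on a log axis in apex and V3 buds, with libraries of the same genotype and replicate number joined, wild type on the left and Aatoe2_IL on the right of each panel. In Aatoe2_IL the 3 lines of HSFA7A fall from apex to buds, to 0.773, 0.356 and 0.373 times, while the lines of HSFA2 and HSFA7B go both ways.

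The balance among the 3 genes differed between libraries. The ratio of HSFA7A to HSFA2, which carries no correction for length and is compared only between libraries, was 0.654 and 0.646 in Aatoe2_IL apex replicates 2 and 3 and 0.285 and 0.248 in the V3 buds of these numbers. It was 0.199 in the apex and 0.119 in the buds of Aatoe2_IL replicate 1. In wild type the ratio was 0.578, 0.102 and 0.129 in apices and 0.203, 0.124 and 0.0269 in buds. The ratio was thus higher in apex than in buds in all 3 numbers of Aatoe2_IL, while in wild type, where numbers were not taken as pairs, the ranges of apices and buds overlapped. HSFA7B against HSFA2 ranged from 0.0430 to 0.242, with the extremes in wild-type apex replicates 3 and 1.

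Over the 12 libraries the members followed each other. Pearson's r of log2(CPM + 1) was 0.959 for HSFA2 with HSFA7A, 0.977 for HSFA2 with HSFA7B and 0.974 for HSFA7A with HSFA7B. After the mean of each group was taken off, r over the same libraries was 0.971, 0.962 and 0.987. The order within a group was not the same throughout, since HSFA7B was higher in replicate 2 than in replicate 3 of Aatoe2_IL in both tissues, and the other two were higher in replicate 3. The libraries are not independent points here, since they share genotype, tissue and in Aatoe2_IL the replicate number, and these values are descriptions.

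Likeness to other genes was taken as Pearson's r of log2(CPM + 1) over the 12 libraries, and the 4 genes with a name or a named orthologue that were most like each member are given. For HSFA2 they were HSFB2B (r = 0.990), HSFB2A (0.989), AT1G14200 (0.984) and AT2G20560, a DNAJ-type cochaperone gene (0.980), which held ranks 1 to 4 among all 19519 other genes tested. For HSFA7A they were HSFA7B at rank 1, EGY3, a relative of chloroplast membrane proteases (0.964), at rank 2, HSFA2 at rank 3 and DYT1, a transcription factor gene of the anther tapetum in Arabidopsis (0.956), at rank 4. For HSFA7B they were HSFA2, HSFA7A, AT1G14200 (0.962) and HSFB2A (0.959), in that order and at ranks 1 to 4. Of the 50 genes most like HSFA2, 24 had a name and 7 were on the lists of heat genes, against 26 and 10 for HSFA7A and 22 and 7 for HSFA7B. The heat counts include the other members. Beside the 19520 genes tested, 445 of the authors' 626 listed genes had an orthologue, and 15 heat genes other than the members had a name. Names came from the genotype contrast in these same libraries, so these counts are a description. The ranks depended on the measure. By Spearman's rho, HSFB2B, HSFB2A, AT1G14200 and AT2G20560 stood at ranks 17, 1, 33 and 37 for HSFA2, the 4 genes for HSFA7A between 8 and 50, and those for HSFA7B between 17 and 45. DYT1 stood at rank 50 for HSFA7A by Spearman's rho and at rank 12 with a pseudocount of 0.1 CPM.

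HSFB2A and HSFB2B were the other 2 heat shock factor genes with a name, out of 21 on the list of the family. HSFB2B had 26.7, 16 and 23.9 CPM in wild-type apices and 20.9, 91.8 and 97.4 CPM in Aatoe2_IL apices. In V3 buds HSFB2B had 31.6, 23.5 and 23.7 CPM in wild type and 21.9, 80.3 and 103 CPM in Aatoe2_IL. HSFB2A had between 16.1 and 24.4 CPM in the 6 wild-type libraries, 19.3, 54.1 and 64.3 CPM in Aatoe2_IL apices and 23.2, 43.9 and 51.7 CPM in Aatoe2_IL buds. In both genes Aatoe2_IL replicates 2 and 3 were high and replicate 1 was not. The log2 difference of Aatoe2_IL from wild type in the apex was 1.65 (SE 0.51) for HSFB2B and 1.25 (SE 0.35) for HSFB2A, and in V3 buds 1.38 (SE 0.51) and 0.90 (SE 0.35). In the comparison of tissues HSFB2B had 0.24 (edgeR adjusted p = 0.811) in wild type and -0.03 (edgeR adjusted p = 0.989) in Aatoe2_IL, and HSFB2A had 0.14 (edgeR adjusted p = 0.839) and -0.21 (edgeR adjusted p = 0.861).

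Of 74 further genes on 5 lists of heat genes (heat shock factors, small heat shock proteins, large chaperones, cochaperones and other heat-responsive genes), 15 had a name and all 15 passed the filter. In the apex 3 of the 15 passed as higher in Aatoe2_IL and 0 as lower, beside 0.292% and 0.809% of all genes, with a median log2 difference of 1.99 and 15 of 15 above 0. The 3 were HSP17.6B and HSP23.6-MITO, genes of small heat shock proteins that hold unfolded proteins, and HSP101, a gene of a chaperone that pulls apart aggregates. In V3 buds 5 passed as higher and 0 as lower, beside 2.98% and 1.97% of all genes, with a median of 1.49 and 14 of 15 above 0, HSP17.6II being at -0.10. These were HSP17.6B, HSP23.6-MITO and HSP101 again, with HSP90.1, a heat-inducible chaperone gene, and FES1A, a cochaperone of HSP70. HSP101 has a 2nd row with its number in the table, so its reads could be split between copies. HSP101 and HSP90.1 are named here after their values were seen. The genes have names because the authors listed them as different between these genotypes in these same libraries. Their passes and signs were thus set in part by that choice. The counts are a description, are not like for like with the shares of all genes, and are no independent evidence of a direction. The median over all genes lay at 0.00 in the apex and -0.01 in V3 buds.

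Values are given for the genes with the highest mean level of each list, which for some lists is low. HSP17.6B had 325 CPM in Aatoe2_IL apex replicate 1, above the wild-type range of 188 to 265 CPM, and 678 and 794 CPM in replicates 2 and 3. HSP23.6-MITO had 14.6 CPM in Aatoe2_IL apex replicate 1, above the 4.06 to 10.8 CPM of wild type, and 45.7 and 66.8 CPM in the other two. For these genes, unlike the 3 members, Aatoe2_IL replicate 1 stood above all wild-type apices. HSC70-3, a gene of the HSP70 family expressed without stress, had 755 to 1010 CPM in wild-type apices and 773, 2300 and 2560 CPM in Aatoe2_IL, and FES1A had 96.5 to 123 CPM in wild type and 117, 624 and 596 CPM in Aatoe2_IL. AT2G20560 had 40.8 to 56.9 CPM against 51.7, 256 and 295 CPM, and DREB2A, a transcription factor gene of the drought and heat response, had 1.94 to 2.65 CPM against 2, 20.6 and 19.9 CPM. CLPB4, a gene of an organelle relative of HSP101, had 78.3 to 113 CPM in wild-type apices and 116, 239 and 253 CPM in Aatoe2_IL.

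Aatoe2_IL replicate 1 was the lowest library of its group for 15 of these 15 genes in both tissues, against the 35.3% and 34.8% of all genes given above. It lay within the wild-type range, with replicates 2 and 3 above that range, for 9 of 15 in the apex and 4 of 15 in V3 buds, beside 8.05% and 5.51% of all genes and 3 of 3 members. Replicates 2 and 3 were above all wild-type libraries for 15 of 15 in the apex and 13 of 15 in V3 buds. The shares over all genes were 19.9% and 18.3%. The 15 genes were named from the genotype contrast, so these shares describe the libraries and support no statement about it.

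**Figure D4:**
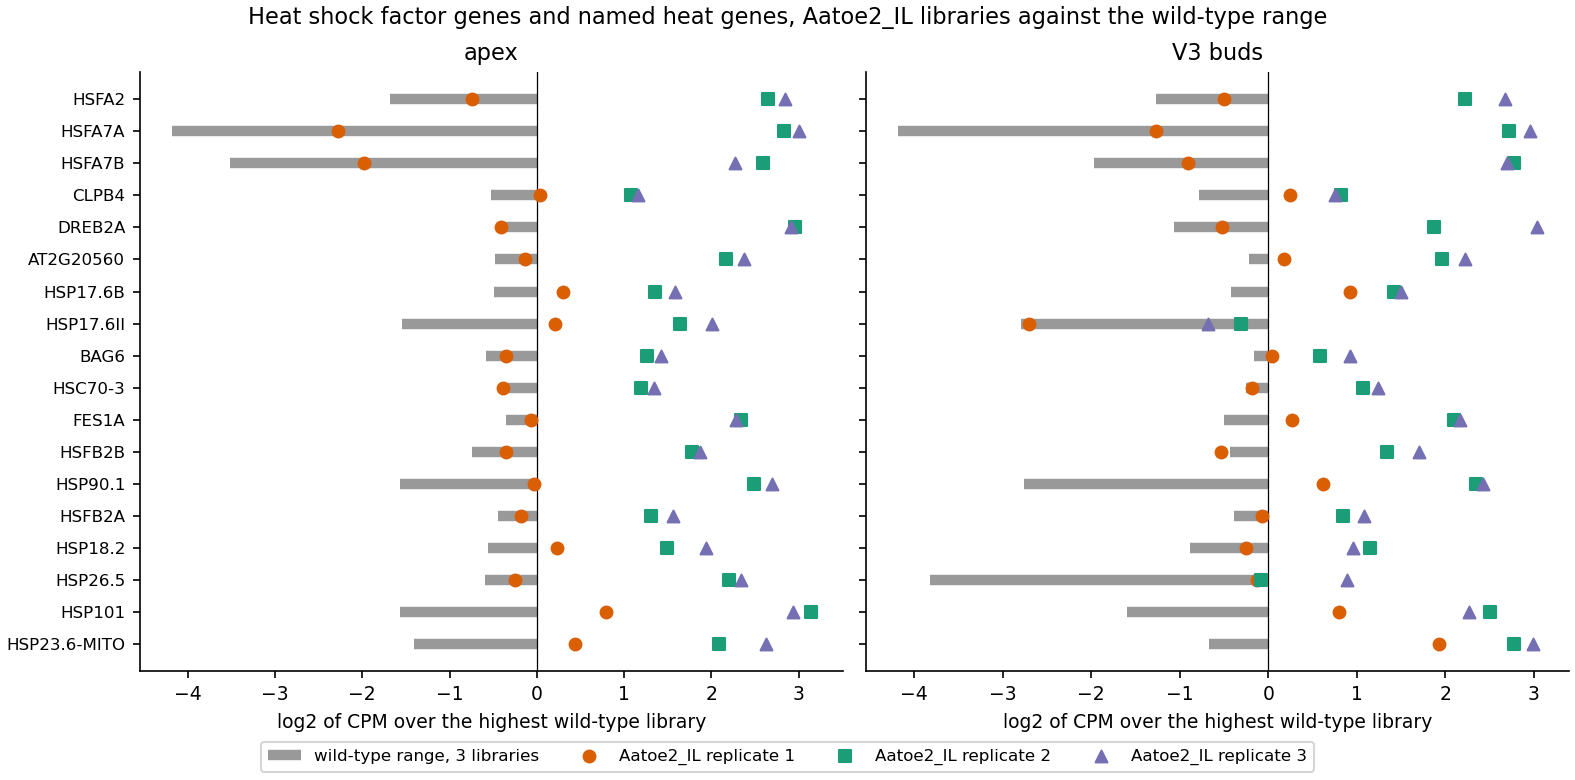
Each Aatoe2_IL library (symbols) as log2 of its CPM over the highest wild-type library of the tissue, with the range of the 3 wild-type libraries as a grey bar, for the 3 members and 15 other named heat genes in apex (left) and V3 buds (right). Replicate 1 is the lowest of the 3 Aatoe2_IL symbols in every line and lies on the grey bar for HSFA2, HSFA7A and HSFA7B in both tissues.

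The comparison of V3 buds with apex did not choose these genes, but it shares libraries with the genotype comparisons that did. A gene listed for high Aatoe2_IL apices could for that reason be lower in Aatoe2_IL buds, so the counts there are a description. HSP17.6II differed between the genotypes by a log2 of 1.99 in the apex and -0.10 in V3 buds. In wild type 1 of the 15 passed as lower in buds and 0 as higher, beside 6.33% and 4.86% of all genes. That gene was HSP17.6B, with a log2 difference of -0.87 (edgeR adjusted p = 0.0441). In Aatoe2_IL 2 of 15 passed as lower in buds and 0 as higher, beside 2.50% and 3.17% of all genes. They were the small heat shock protein genes HSP17.6II (-3.62, edgeR adjusted p = 0.00280) and HSP18.2 (-1.93, edgeR adjusted p = 0.00885), named here after their values were seen. HSP17.6II rests on few reads, at 0.108, 0.568 and 0.437 CPM in Aatoe2_IL buds and 2.0, 5.4 and 6.95 CPM in Aatoe2_IL apices. With the replicate block, 9 of 15 were lower in V3 buds of Aatoe2_IL and 0 higher, beside the 5.25% and 6.93% of all genes, and 9 of 15 were lower in all 3 numbers, beside 23.7%. By list, these were 5 small heat shock protein genes, the chaperone genes CLPB4, HSP90.1 and HSP101, and BAG6, a cochaperone gene. HSP90.1 had a blocked log2 difference of -1.17 (SE 0.14, edgeR adjusted p = 1.25e-05) and HSP23.6-MITO one of -1.22 (SE 0.18, edgeR adjusted p = 6.67e-05). HSFB2A and HSFB2B did not pass, at -0.15 (edgeR adjusted p = 0.455) and -0.03 (edgeR adjusted p = 0.915). The median log2 difference of buds from apex without the block over the 15 genes was -0.40 in wild type and -0.80 in Aatoe2_IL, beside 0.01 and -0.01 over all genes.

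Further readings moved with some of these libraries. The share of reads outside genes was 18.8% and 21.5% in wild-type apex and bud replicate 1, in which the members were highest for wild type, and 13.4% to 15.5% in the other wild-type libraries. In Aatoe2_IL the share was 16.6%, 21.1% and 17.4% in apices and 17.1%, 19.0% and 15.4% in buds of replicates 1, 2 and 3, so replicate 1 did not stand apart there. ERDJ3A was the named gene of the list for protein folding in the endoplasmic reticulum (1 of 9). It had 14.2 to 19.4 CPM in wild-type apices and 19.0, 112 and 117 CPM in Aatoe2_IL apices of replicates 1, 2 and 3. In buds it had 11.8 to 17.7 CPM in wild type and 12.4, 63.0 and 84.2 CPM in Aatoe2_IL. Its log2 differences between the genotypes, 2.32 in the apex and 1.91 in V3 buds, thus rest on replicates 2 and 3. ZAT12 was the named gene of the list for oxidative and strong-light stress (1 of 9). It had 1.72 and 1.92, with few reads, at 0 to 1.4 CPM in the wild-type libraries. CAB1, a gene of the light-harvesting complex and the only named green leaf marker of 8 on its list, had 1460 to 2210 CPM in wild-type and 2220 to 3000 CPM in Aatoe2_IL apices, and 1690 to 1820 against 3030 to 4640 CPM in buds. The 3 named phloem and vascular markers of 6 summed to 51.6 to 65.8 CPM in wild-type and 29.2 to 40.8 CPM in Aatoe2_IL apices, and to 7 to 10.7 against 17.7 to 24.6 CPM in buds. The 3 named floral markers of 6 summed to 22.7 to 31.4 against 34.7 to 52.5 CPM in apices and 5.83 to 7.16 against 17.8 to 25.5 CPM in buds. The members of these lists did not move alike. In buds the log2 difference of Aatoe2_IL from wild type was 1.53 for XIP1 and 1.47 for SEOR1 but -2.07 for SWEET12. It was 1.85 for CRC but -0.78 for AP1. SWEET12 lay at 0 to 0.605 CPM in buds and AP1 at 0 to 0.202 CPM, so their differences rest on few reads. Aatoe2_IL replicate 1 had 2220 CPM of CAB1 in the apex and 3030 CPM in buds, above the wild-type libraries of each tissue. In buds this replicate had 8.28 CPM of XIP1, 16.2 of SEOR1 and 17.4 of CRC. Wild-type buds had at most 3.43, 7.56 and 6.76 CPM of these genes. AP1 in buds of this replicate lay within the wild-type range. None of the 4 meristem markers had a name, so the labelled tissue could not be checked against them. The part of these readings in the members' levels was not tested.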

How the data were processed

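The deposited count table held raw counts of reads per gene, as its whole numbers and the deposited counter entries show. STAR, HTSeq 0.5.4p1, DESeq and DESeq2 are named in the submitters' processing notes without roles. The genome build, annotation and strand setting of the counting are not given in the sources used here. Reads of overlapping or antisense genes therefore cannot be told apart, and no coordinates or sequences are printed. Libraries came from a strand-specific kit and single reads of 100 bases, per the labels' protocols. The authors' deposited lists give a mean signal of scaled counts per group, a fold ratio, its log2 and an adjusted p-value, per the file headers, for 626 genes, 445 with an orthologue.

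Counters of reads outside genes, with 13.4% to 21.5% of each library outside genes, stayed out of library sizes and tests. Counts were fitted with edgeR 4.0.16 in R 4.3.3 (TMM, default filter, quasi-likelihood test) over 12 libraries in 4 groups with 8 residual degrees of freedom, and p-values were adjusted by Benjamini-Hochberg over 19520 genes. DESeq2 1.42.0 was an alternative. Each SE is the absolute log2 difference divided by the square root of F, and intervals use these SE. The fit without a block was tested on simulated counts for V3 buds against apex in wild type, with the same spread in every gene and no replicate effect. The blocked fits were not tested this way. Low levels rest on few reads, and read counts are given only for some low values of the members.

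The members and lists were chosen with earlier results of these data known. Named genes were the members, the other heat shock factors, the 2 highest of each heat list and the 4 named genes most like each member. HSP90.1, HSP101, HSP17.6II, HSP18.2, BAG6 and single tissue markers were named after their values were seen. HSP17.6B and HSC70-3 are Arabidopsis names for orthologues that the lists give by identifier only. Replicate numbers were taken as pairs for tissues in Aatoe2_IL, where every correlation of deviations was over 0.1. No label gives this pairing, and it was taken from these same data. The fit of 12 libraries with the replicate block also blocked the wild-type numbers, so its spread was estimated with them. It had 4 residual degrees of freedom.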

Additional observations from a re-analysis of the deposited data

How the results depend on the processing

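Under RLE size factors, the DESeq2 test, no filter, the 6 libraries of a comparison, and single libraries left out, no member passed in either comparison of tissues. Correlations of same-numbered deviations between wild-type apex and buds were 0.42, 0.08 and 0.30, so the numbers were not taken as pairs there. The replicate block over 12 libraries nevertheless blocked them. With the replicate block, HSFA7A had -1.05 in wild type (edgeR adjusted p = 0.0208), HSFA7B turned to 0.03, and in Aatoe2_IL HSFA7A had -1.35. The block within a tissue changed no sign of a genotype difference. With the block and Aatoe2_IL numbers 1, 2 and 3 left out in turn, HSFA7A had -1.45, -1.22 and -1.27, and without number 2 HSFA2 had 0.13. With the block in the 6 Aatoe2_IL libraries alone, HSFA7A had -1.39 and HSFA7B -0.40.

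Leaving out 1 library moved the difference of buds from apex in wild type from -0.25 to 0.64 for HSFA2, from -2.38 to 0.88 for HSFA7A and from -0.69 to 1.87 for HSFA7B. In Aatoe2_IL it moved it from -0.66 to 0.37, -1.99 to -0.89 and -0.99 to 0.12. The genotype difference ranged from 3.15 to 5.70 (HSFA7A) and 2.62 to 5.19 (HSFA7B) in the apex, and from 2.85 to 4.59 and 2.50 to 3.43 in buds. The difference between tissues of that difference ranged from -0.84 to 0.20 (HSFA2), -2.31 to 0.95 (HSFA7A) and -2.30 to 0.27 (HSFA7B). Without both wild-type replicate 1 libraries, an alternative added after seeing the data, HSFA7B had 5.19 for the genotype difference in the apex and 1.34 for buds against apex in wild type. The block alternatives limited to some Aatoe2_IL libraries were also added then.

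Genes called in the apex between genotypes were 215, and 565 with DESeq2, 400 without a filter, 129 in 6 libraries, 113 with the replicate block, 835 without both Aatoe2_IL and 1368 without both wild-type replicate 1 libraries. Called genes in buds were 967, and 621 in 6 libraries. For the difference of genotype effects they were 202, and 567 with DESeq2, 1986 with the replicate block, and 43 and 500 without both replicate 1 libraries of Aatoe2_IL and of wild type. The replicate block gave 4824 for tissues in wild type and 2378 in Aatoe2_IL, against 2184 and 1107, with 3155 in the 6 Aatoe2_IL libraries alone and 1897 without number 1. Leaving out 1 library gave 35 to 698, 410 to 1044, 40 to 391, 1258 to 2455 and 629 to 1369 for these 5 counts. Spearman's rho was 0.909 for HSFA7A with HSFA7B. The cause of these shifts was not tested.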
